A study of Mus musculus with 23 samples.

Results

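Microglia are the resident macrophages of the brain and spinal cord, and 42 of their genes were followed here in mice that carry human C9orf72. The genes were chosen by name, with earlier results of these data known. They comprised 13 homeostatic genes, 14 disease-associated genes and 15 general microglia genes, which are expressed in both states. All 42 were listed in both tables, among 20016 gene names for cortex and 19890 for spinal cord. A mean of at least 0.5 RPKM (read counts scaled to gene length and to library size) over the libraries of a tissue was required, which 39 of the 42 met in cortex and 37 in spinal cord.

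Homeostatic microglia survey the tissue through receptors for fractalkine and for purine nucleotides, and they depend on signalling by the receptor Csf1r and by TGF-beta. Near amyloid, dying neurons or damaged myelin, microglia lower these genes and raise a disease-associated set in which the lipid receptor Trem2 and its adaptor Tyrobp act upstream of genes for lipid handling, lysosomes and phagocytosis. C9orf72 carries an intronic repeat that is expanded in many families with ALS or frontotemporal dementia. The gene is itself highly expressed in myeloid cells, and mice that lack it develop activated macrophages and microglia.

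The mice were C57BL/6, aged 6 months, and either nontransgenic (NTg), transgenic for unexpanded human C9orf72 (F08) or transgenic for the expanded human gene (F112). The series title describes the transgenes as bacterial artificial chromosomes, and the mouse gene was not stated to be altered in any group. The human promoter content and the site of integration are not given in the labels. Cortex gave 4 NTg, 4 F08 and 3 F112 libraries, and lumbar spinal cord gave 4 of each, from 12 mice whose numbers recur in both tissues. Each transgene was represented by 1 line, so the line and the repeat cannot be told apart, and bulk tissue was used, so fewer microglia and less RNA per microglial cell cannot be told apart either. Per library, 9398450 to 14715900 alignments were recorded in cortex and 28479400 to 38811100 in spinal cord. Neuronal markers (5 genes) summed to 820 to 1119 RPKM in cortex, and motor neuron markers (5 genes) summed to 54.1 to 75.0 RPKM in spinal cord against 0.686 to 9.55 RPKM in cortex.

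Promoters are shown for 4 members whose windows hold a motif of a factor known to act in macrophages. PU.1, encoded by Spi1, is the factor that specifies the myeloid lineage, and AP-1 is induced on activation. The windows span 250 bases before to 50 after the gene start and come from RefSeq on build GRCm38.p6, with 34 of the 42 members matched among 27025 genes. The PU.1 site GAGGAAGT was found, on either strand, in the windows of C1qc, Cd53, Ctss, Hpgds, Slco2b1 and Spp1, which is 17.6% of members beside 3.69% of all genes with a window. Its shorter core GGAAGT, which every such site contains, was found in 18 members (52.9%) beside 26.5% of all genes with a window. The AP-1 site TGACTCA was found in Cd68, Gpnmb, Itgax and Slco2b1 (11.8% beside 5.95%). The E-box CACGTG, which lies inside the longer TCACGTG, was found in P2ry12 and Siglech (5.88% beside 8.09%), in both as part of TCACGTG (5.88% beside 4.29%). Spp1 and Gpnmb are disease-associated members and Ctss a general member whose cortex levels split the libraries, as described further on, and Slco2b1 is the homeostatic member with both sites side by side. The windows are chr5:104434861-104435160 (plus strand) for Spp1, chr6:49036268-49036567 (plus) for Gpnmb, chr3:95526536-95526835 (plus) for Ctss and chr7:99711291-99711590 (minus) for Slco2b1, each written 5′ to 3′ on the strand of the gene. Capitals mark the PU.1 site in Spp1 and, read from the opposite strand, in Ctss, the AP-1 site in Gpnmb, and the PU.1 site followed by the overlapping AP-1 site in Slco2b1. A match describes these letters and is not evidence of binding.
Spp1: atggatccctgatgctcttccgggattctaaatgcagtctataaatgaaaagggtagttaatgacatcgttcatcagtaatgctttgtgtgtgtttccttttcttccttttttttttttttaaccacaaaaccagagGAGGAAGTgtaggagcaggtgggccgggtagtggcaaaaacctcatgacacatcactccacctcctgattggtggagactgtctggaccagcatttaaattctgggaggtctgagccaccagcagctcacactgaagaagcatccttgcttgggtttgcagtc
Gpnmb: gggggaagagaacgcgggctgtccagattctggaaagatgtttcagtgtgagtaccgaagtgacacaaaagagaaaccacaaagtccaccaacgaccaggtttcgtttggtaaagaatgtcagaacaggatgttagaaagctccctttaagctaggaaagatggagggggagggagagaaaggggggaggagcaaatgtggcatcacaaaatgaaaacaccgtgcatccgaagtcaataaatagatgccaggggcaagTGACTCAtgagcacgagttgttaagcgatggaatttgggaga
Ctss: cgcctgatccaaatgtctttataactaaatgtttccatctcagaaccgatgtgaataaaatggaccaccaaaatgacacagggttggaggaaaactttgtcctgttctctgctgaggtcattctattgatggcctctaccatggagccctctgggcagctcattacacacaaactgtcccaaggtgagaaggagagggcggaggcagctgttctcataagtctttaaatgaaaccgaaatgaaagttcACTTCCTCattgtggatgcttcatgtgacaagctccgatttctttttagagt
Slco2b1: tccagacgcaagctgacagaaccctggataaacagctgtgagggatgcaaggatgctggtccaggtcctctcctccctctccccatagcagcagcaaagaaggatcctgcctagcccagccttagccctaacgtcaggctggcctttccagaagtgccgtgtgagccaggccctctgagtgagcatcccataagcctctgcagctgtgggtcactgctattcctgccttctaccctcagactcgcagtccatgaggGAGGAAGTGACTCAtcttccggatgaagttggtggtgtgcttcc

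Cortex libraries stood apart from one another in a way that did not follow genotype. Many genes outside the microglia set took part in this. Among the classes of members, the disease-associated genes had the largest median difference. Within that class Lyz2, Ccl6, Lgals3, Gpnmb and Spp1 differed most, while Trem2, Tyrobp, Axl, Csf1 and Apoe differed far less. Alignments left a gap between 6 shallower libraries with 9398450 to 11512300 (2 of each genotype: NTg 6322 and 6326, F08 6318 and 6319, F112 6316 and 6317) and 5 deeper libraries with 13115500 to 14715900 (NTg 6323 and 6327, F08 6320 and 6321, F112 6324). Library values below are in the order of mouse number, which is 6322, 6323, 6326 and 6327 for NTg, 6318, 6319, 6320 and 6321 for F08, and 6316, 6317 and 6324 for F112, followed by 6325 in spinal cord.

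Lyz2, the lysozyme of macrophages and neutrophils (chr10:117277331-117282321, GRCm38), was at 4.87, 81.7, 5.95 and 96.7 RPKM in NTg, 6.40, 3.06, 91.1 and 15.3 in F08 and 12.0, 6.25 and 47.6 in F112. The values near 90 RPKM belong to NTg 6323, NTg 6327 and F08 6320, the F112 library 6324 follows, and all other libraries are far below, so the groups overlap throughout. Lgals3, the galectin of phagocytic cells, was at 0.0808, 8.27, 0.814 and 8.57 RPKM in NTg, 0.0856, 0.141, 9.23 and 1.61 in F08 and 0.962, 0.154 and 3.40 in F112. Its highest values came from the same 4 libraries. Spp1, the secreted phosphoprotein osteopontin, was at 6.69, 19.2, 4.86 and 20.5 RPKM in NTg, 5.73, 6.16, 18.3 and 6.70 in F08 and 3.03, 6.23 and 14.3 in F112. The 5 deeper libraries were again the highest 5, although F08 6321 and NTg 6322, which had fewer alignments, were nearly equal.

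Of the 39 members tested, 6 (Cd9, Ctss, Gpnmb, Lgals3, Lyz2 and Spp1) were higher in all 5 of these libraries than in all 6 others, beside 7.11% of all genes. Lgals3, at 0.0808 to 0.962 RPKM in the 6, passed the level filter through the 5 libraries in which it is high. Ptprc, at 0.205 to 0.395 RPKM in the 6, also passed it through the 5. Both enter the class medians below, and Lgals3 is 1 of the 6 members above, so neither counts as support for the split. None of the 39 was lower in all 5, beside 0.685% of all genes. The median log2 difference between the 5 and the 6 libraries was 0.76 over 11 disease-associated members, 0.29 over 15 general members and 0.042 over 13 homeostatic members. Over all 13865 genes it was 0.11, with 72.4% of genes higher in the 5. All 11 tested disease-associated members were higher on average in the 5 libraries, with differences from 0.15 for Apoe to 3.12 for Lyz2. Ccl6, a macrophage chemokine, differed by 2.92, Gpnmb, a lysosomal glycoprotein of lipid-laden phagocytes, by 2.10 and the tetraspanin Cd9 by 0.76. Trem2, Tyrobp, Axl and Csf1 differed by 0.29, 0.32, 0.25 and 0.24, near the median of the general members.

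The 3 disease-associated members under the level filter were at most 0.199 RPKM in the 6 libraries, and only Clec7a separated the 5 libraries from the 6. The 7.11% of all genes given above covers only genes that passed the filter, so no share over all genes stands beside this. Clec7a, the beta-glucan receptor dectin-1, lay between 0.245 and 1.49 RPKM in the 5 libraries and between 0.0413 and 0.0976 in the 6. Itgax, the integrin CD11c, was at 0.0556, 0.505, 0 and 1.21 RPKM in NTg, 0.0295, 0, 1.34 and 0.0593 in F08 and 0.110, 0.0795 and 0.411 in F112. Its values above 0.4 RPKM came from NTg 6323, NTg 6327, F08 6320 and F112 6324, and 2 libraries were listed at 0. The lowest of the 5 libraries, at 0.0593 RPKM, lay below the highest of the 6, at 0.110. Cst7, the cathepsin inhibitor cystatin F, was at 0.114, 0.234, 0.0953 and 0.541 RPKM in NTg, 0.120, 0.199, 0.299 and 0.323 in F08 and 0, 0.108 and 0.168 in F112. It stayed under 0.6 RPKM in every library, and the genotypes overlapped, as did the 5 and the 6 libraries.

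Homeostatic members moved little and in both directions, with 8 of 13 higher in the 5 libraries and differences between -0.23 (Tmem119) and 0.23 (Selplg). Within genotypes, the standard deviation of the mean centred log2 value of a class, pooled over genotypes, was 0.079 for homeostatic, 0.82 for disease-associated and 0.20 for general members in cortex. In spinal cord it was 0.045, 0.040 and 0.048.

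**Figure D1:**
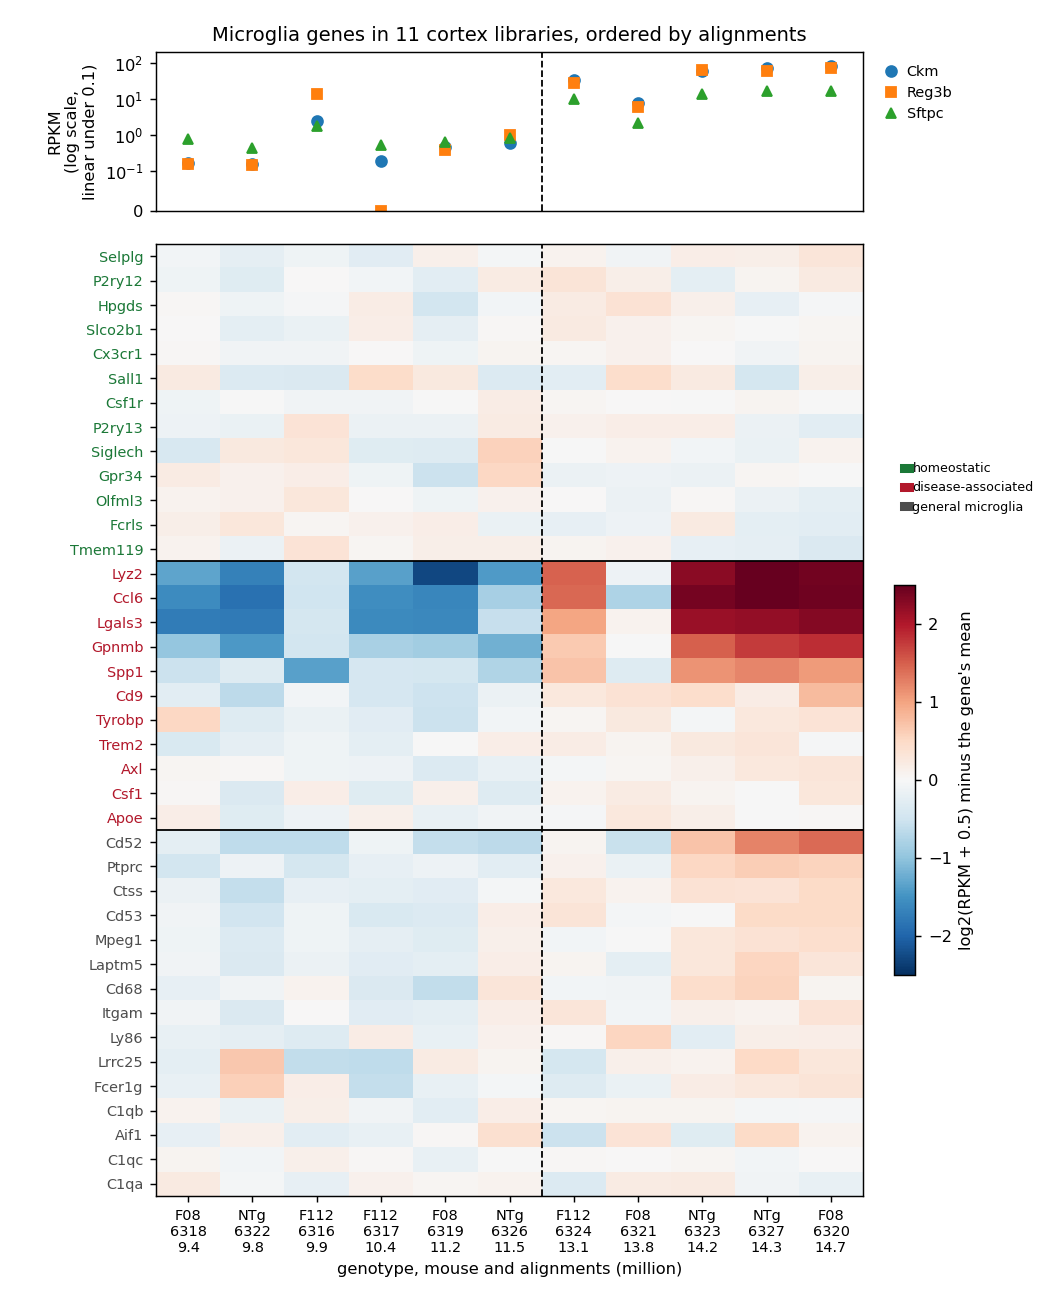
Cortex members by library, with libraries ordered from left to right by alignments and a dashed line between the shallower and the deeper libraries. Colours give log2(RPKM + 0.5) minus the mean of the gene, gene names are coloured by class, and the upper panel gives the RPKM of Ckm (muscle), Reg3b (intestine) and Sftpc (lung) in the same libraries, so that the red block of Lyz2, Ccl6, Lgals3, Gpnmb and Spp1 lies under the highest values of these 3 genes.

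The same cortex libraries contained transcripts of muscle, intestine and lung. Ckm, the creatine kinase of muscle, was at 0.158, 58.8, 0.580 and 71.2 RPKM in NTg, 0.168, 0.446, 82.6 and 7.86 in F08 and 2.48, 0.192 and 33.1 in F112. Summed over 15 skeletal muscle genes, levels were 7.13 to 24.4 RPKM in the 6 libraries and 31.7 to 397 in the 5. Intestinal genes (11 genes, among them the antimicrobial lectins Reg3b and Reg3g) summed to 0.517 to 27.5 RPKM against 15.2 to 144.8, and lung genes (6 genes, among them the surfactant protein Sftpc) to 0.705 to 4.92 against 4.11 to 38.0. In both lists the overlap came from F112 6316, whose sums were 27.5 and 4.92 RPKM. Its Lyz2 level of 12.0 RPKM was also the highest among the 6 libraries.

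Summed marker transcripts of myeloid cells other than microglia were also higher in the 5 libraries. Bulk tissue does not show which cells they came from. Monocyte and neutrophil markers (8 genes) summed to 0.801 to 4.23 RPKM in the 6 libraries and 4.29 to 25.4 in the 5, and genes of activated macrophages (8 genes, among them Arg1, Chil3 and Mmp12) to 0.309 to 2.01 against 3.31 to 35.4. Markers of perivascular and border macrophages (8 genes) summed to 3.98 to 5.19 RPKM against 5.51 to 7.34. No gene of these lists was at 0 in every library. Xist, which females express, was at 24.8 to 36.5 RPKM in 5 of the 6 libraries and 1 of the 5 (NTg 6323) and under 0.5 RPKM in the rest, so sex and depth class largely coincided, and the labels do not give sex. By genotype, the activated macrophage sums ran from 0.676 to 35.4 RPKM in NTg, from 0.433 to 32.2 in F08 and from 0.309 to 18.4 in F112. In spinal cord of the same mice the activated macrophage sum was 0.230 to 0.993 RPKM, the muscle sum 2.87 to 4.24, and Lyz2 stayed at 4.02 to 5.83 RPKM. The lists of muscle, intestine, lung, skin and activated macrophages were chosen after these values were seen, and the part that such transcripts play in the levels of the 42 genes was not tested.

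**Figure D2:**
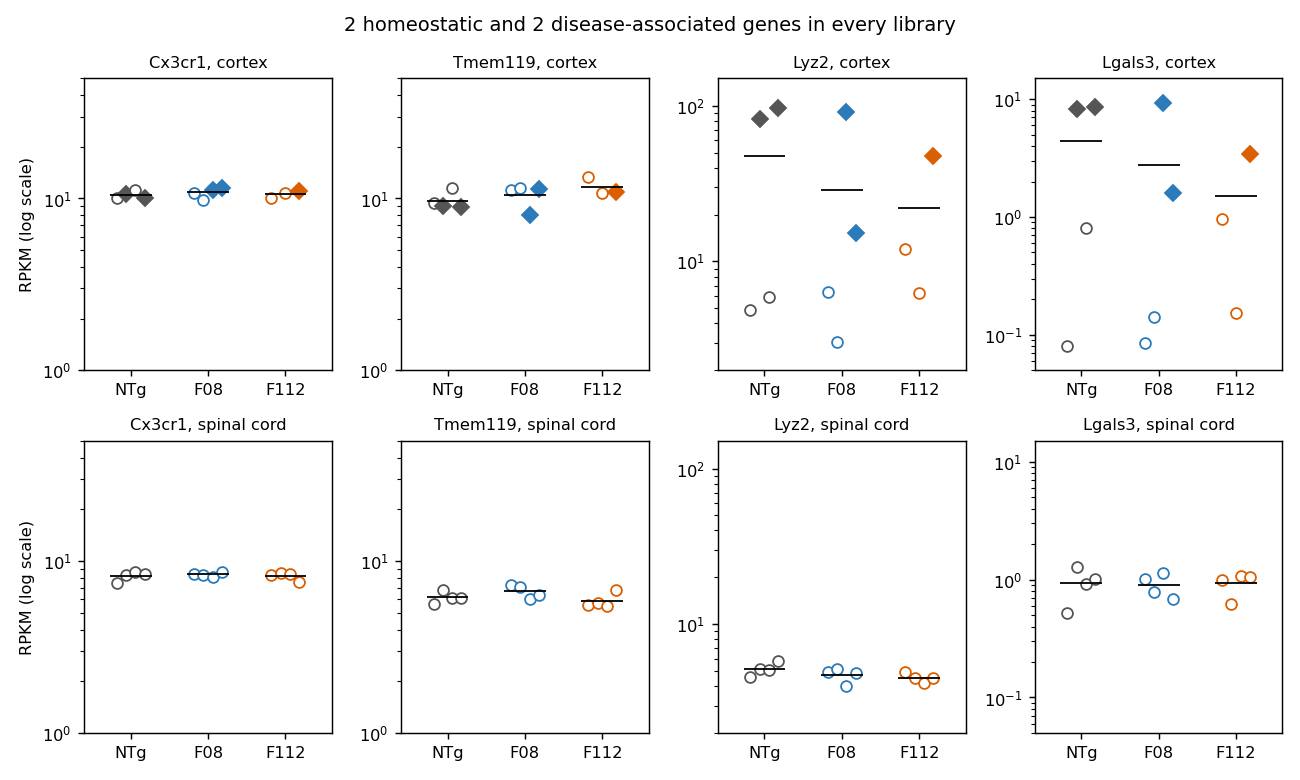
Levels (RPKM, log axes) of the homeostatic genes Cx3cr1 and Tmem119 and the disease-associated genes Lyz2 and Lgals3 in every library of cortex (upper panels) and spinal cord (lower panels). Filled diamonds are the 5 deeper cortex libraries, open circles all other libraries, and bars the genotype means; Lyz2 reaches 96.7 RPKM in cortex but at most 5.83 RPKM in spinal cord, while Cx3cr1 spans 9.84 to 11.5 RPKM in cortex.

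In cortex, F112 was first compared with NTg, which addresses the expanded transgene. No member passed an adjusted p of 0.05 in limma's moderated test on log2(RPKM + 0.5), where 1 of 13865 genes (0.00721%) passed. At an unadjusted p under 0.05 there were 4 of 39 members, all lower in F112 (Lrrc25, Aif1, Fcer1g and Cd68, all general members), beside 1.97% of all genes (1.27% lower and 0.7% higher). Lrrc25 passed the level filter through the groups in which it is higher, so its place among the 4 is not support. It also enters the medians and counts that follow. Median log2 fold changes were 0.075 for homeostatic, -0.19 for disease-associated and -0.24 for general members, beside -0.020 for all genes. Below 0 were 5 of 13, 9 of 11 and 11 of 15 members of these classes, together 25 of 39, beside 56.4% of all genes.

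Lrrc25, a leucine-rich membrane protein of myeloid cells (chr8:70616155-70621483, GRCm38), had the smallest p. It was at 1.14, 0.604, 0.591 and 0.957 RPKM in NTg, 0.373, 0.692, 0.752 and 0.625 in F08 and 0.175, 0.168 and 0.260 in F112. All 3 F112 libraries were below all 4 NTg and all 4 F08 libraries, and it was the only 1 of 39 members without overlap between F112 and NTg (1.86% of all genes were lower and 1.19% higher without overlap). The log2 fold change was -0.90 (SE 0.215), with a limma p of 0.00131 and an adjusted p of 1.00. The exact two-sided permutation p was 0.0286, the smallest that 35 arrangements allow, and 0.0857 after adjustment over the comparisons of this gene. At a mean of 0.58 RPKM it passed the level filter through the groups in which it is higher. In spinal cord it did not pass and spanned 0.124 to 0.298 RPKM. Among the 6 shallower cortex libraries the difference was -1.0 (SE 0.319), and among the 5 others it was -0.74 (SE 0.350), with 1 F112 library in the latter.

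Aif1, which encodes the microglial marker IBA1, was at 2.69, 1.84, 3.33 and 3.57 RPKM in NTg, 2.04, 2.46, 2.61 and 3.18 in F08 and 1.90, 2.07 and 1.51 in F112. F112 6324 was below every other library, and NTg 6323 was below the other 2 F112 libraries. The log2 fold change was -0.50 (SE 0.199, limma p 0.0265, adjusted p 1.00), and -0.49 among the 6 libraries with fewer alignments. Cd68, a lysosomal glycoprotein of phagocytes, was at 4.24, 6.28, 5.65 and 6.84 RPKM in NTg, 3.81, 2.75, 4.73 and 4.22 in F08 and 4.80, 3.38 and 4.29 in F112, with overlap between F112 and NTg. Its log2 fold change was -0.42 (SE 0.190), and -0.25 (SE 0.232) among the 6 libraries. Fcer1g, the signalling chain of Fc receptors, was at 10.6, 7.82, 6.57 and 8.33 RPKM in NTg, 5.95, 5.95, 8.73 and 6.05 in F08 and 7.77, 4.38 and 5.40 in F112. The lowest 2 values were F112 6317 and 6324, while F112 6316 was above 1 NTg library, and the log2 fold change was -0.49 (SE 0.201).

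The disease-associated median between F112 and NTg depended on which libraries were used. Over the same 11 members throughout, it was -0.19 in all 11 libraries, 0.16 among the 6 shallower and -0.25 among the 5 deeper libraries. Where the level filter was applied again within the 5 deeper libraries, Clec7a and Itgax joined the members tested and the median was -0.46, and within the 6 shallower ones Lgals3 dropped out and it was 0.18. Without NTg 6327 the median of the same members was 0.017, and without NTg 6322 it was -0.30. With depth class (deeper or shallower) as a covariate it was -0.038, and with log2 Ckm as a covariate -0.043. The general median, -0.24 over all libraries, was -0.056 among the 6 shallower and -0.39 among the 5 deeper libraries, and without NTg 6327 it was -0.15. The homeostatic median lay between 0.016 (without NTg 6327) and 0.097 (the 5 deeper libraries) in these fits, and without F112 6316 it was -0.013. The 8 activated macrophage genes, a list chosen after the values were seen, all passed the level filter in cortex. They summed to 0.309 to 2.01 RPKM in the 6 shallower libraries and 3.31 to 35.4 in the 5 deeper ones. Below 0 were 8 of 8 log2 fold changes in F112 against NTg (median -0.60), beside 56.4% of all genes. In F08 against NTg 8 of 8 were below 0 (median -0.57), beside 50.5%. These signs describe a list chosen from the same libraries and are not a test. For Lyz2 itself the log2 fold change was -0.53 (SE 1.25), and with Ckm as a covariate it was -0.017 (SE 0.253).

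The receptor pair of the disease-associated set did not separate the genotypes. Trem2 was at 6.44, 9.15, 8.65 and 9.53 RPKM in NTg, 5.68, 7.58, 7.47 and 8.03 in F08 and 7.00, 6.31 and 8.73 in F112. Tyrobp was at 7.32, 8.96, 8.80 and 11.3 RPKM in NTg, 13.4, 6.23, 12.0 and 11.1 in F08 and 8.24, 7.54 and 9.64 in F112. Both overlapped between all groups, and the log2 fold changes of F112 against NTg were -0.19 (SE 0.159) and -0.088 (SE 0.221). Apoe, the main lipid carrier of the brain and mostly an astrocyte product in health, was the highest member by RPKM, at 449.8, 618, 524 and 549 RPKM in NTg, 623, 487, 569.9 and 669.6 in F08 and 507, 605 and 547 in F112. Its log2 fold change was 0.053 (SE 0.135) and its groups overlapped. Csf1, a growth factor for microglia, was at 3.31, 4.64, 3.40 and 4.34 RPKM in NTg, 4.49, 4.82, 5.44 and 5.15 in F08 and 5.00, 3.45 and 4.67 in F112.

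Homeostatic receptors overlapped between genotypes in cortex. Cx3cr1, the fractalkine receptor, was at 10.1, 10.7, 11.3 and 10.0 RPKM in NTg, 10.8, 9.84, 11.3 and 11.5 in F08 and 10.0, 10.8 and 11.1 in F112. Csf1r, the receptor for the survival factors CSF1 and IL-34, was at 17.7, 17.7, 20.4 and 18.6 RPKM in NTg, 16.5, 17.7, 17.7 and 18.0 in F08 and 16.7, 16.6 and 18.5 in F112. P2ry12, the ADP receptor that steers microglial processes, was at 6.61, 6.90, 9.57 and 8.70 RPKM in NTg, 7.57, 6.74, 9.67 and 9.19 in F08 and 8.32, 7.80 and 10.5 in F112. All 3 overlapped between every pair of genotypes, and the SE of the F112 against NTg difference was 0.0870, 0.0813 and 0.161 in that order. P2ry13, a related ADP receptor, was at 2.30, 3.04, 3.16 and 2.35 RPKM in NTg, 2.40, 2.37, 2.13 and 3.03 in F08 and 3.52, 2.36 and 2.91 in F112. Gpr34, a lysophosphatidylserine receptor, was at 2.89, 2.35, 4.01 and 2.73 RPKM in NTg, 3.13, 1.65, 2.64 and 2.39 in F08 and 3.04, 2.42 and 2.35 in F112. The lowest Gpr34 value was F08 6319 and the highest NTg 6326.

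Other homeostatic members covered the cell surface, secretion and transcription. Tmem119, a membrane protein used to tell microglia from other macrophages, was at 9.38, 9.02, 11.6 and 8.87 RPKM in NTg, 11.2, 11.5, 8.01 and 11.3 in F08 and 13.4, 10.8 and 10.9 in F112. Its F112 mean was 11.7 ± 1.49 RPKM (SD, n = 3) and its NTg mean 9.71 ± 1.26 RPKM (SD, n = 4), with overlap. The log2 fold change was 0.26 (SE 0.143, limma p 0.0976, adjusted p 1.00). Siglech, a sialic acid-binding lectin, was at 4.02, 3.14, 5.14 and 2.89 RPKM in NTg, 2.38, 2.53, 3.53 and 3.52 in F08 and 4.13, 2.58 and 3.28 in F112. Olfml3, a secreted matrix protein, was at 10.4, 9.87, 10.5 and 8.64 RPKM in NTg, 10.3, 8.91, 8.06 and 8.67 in F08 and 11.8, 9.70 and 9.76 in F112. Hpgds, a prostaglandin D synthase, was at 1.12, 1.42, 1.17 and 1.02 RPKM in NTg, 1.30, 0.772, 1.21 and 1.74 in F08 and 1.21, 1.49 and 1.53 in F112. None of these separated a pair of genotypes. Fcrls, Selplg and Slco2b1 spanned 7.36 to 10.9, 7.98 to 12.3 and 2.74 to 3.97 RPKM.

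Complement C1q, which tags synapses and debris for uptake by microglia, is made of 3 chains that were measured at similar levels. C1qa was at 25.1, 30.5, 27.7 and 24.5 RPKM in NTg, 30.7, 27.0, 23.1 and 30.2 in F08 and 22.7, 28.4 and 20.5 in F112. C1qb was at 33.1, 38.7, 41.6 and 35.7 RPKM in NTg, 39.7, 30.9, 36.5 and 39.1 in F08 and 41.3, 34.6 and 38.3 in F112. C1qc was at 28.2, 30.8, 29.4 and 28.4 RPKM in NTg, 31.3, 26.2, 29.7 and 29.8 in F08 and 32.4, 30.4 and 30.3 in F112. The chains overlapped between all genotypes, with F112 against NTg log2 fold changes of -0.18 (SE 0.132), 0.032 (SE 0.110) and 0.087 (SE 0.0794). Ly86, a partner of a toll-like receptor homologue, was at 3.26, 3.16, 4.24 and 4.35 RPKM in NTg, 3.33, 3.34, 4.43 and 5.83 in F08 and 3.01, 4.49 and 3.98 in F112. The cathepsin Ctss spanned 16.1 to 34.7 RPKM, and the lymphocyte and macrophage surface protein Cd52 spanned 1.31 to 7.02. Of the remaining general members, Laptm5, Mpeg1, Itgam and Cd53 spanned 9.48 to 18.0, 4.00 to 7.15, 2.46 to 4.31 and 0.719 to 1.87 RPKM. Ptprc, the leukocyte antigen CD45, had the lowest mean of those that passed the filter, at 0.51 RPKM, and Clec7a, at 0.47, the highest of those that did not.

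**Figure D3:**
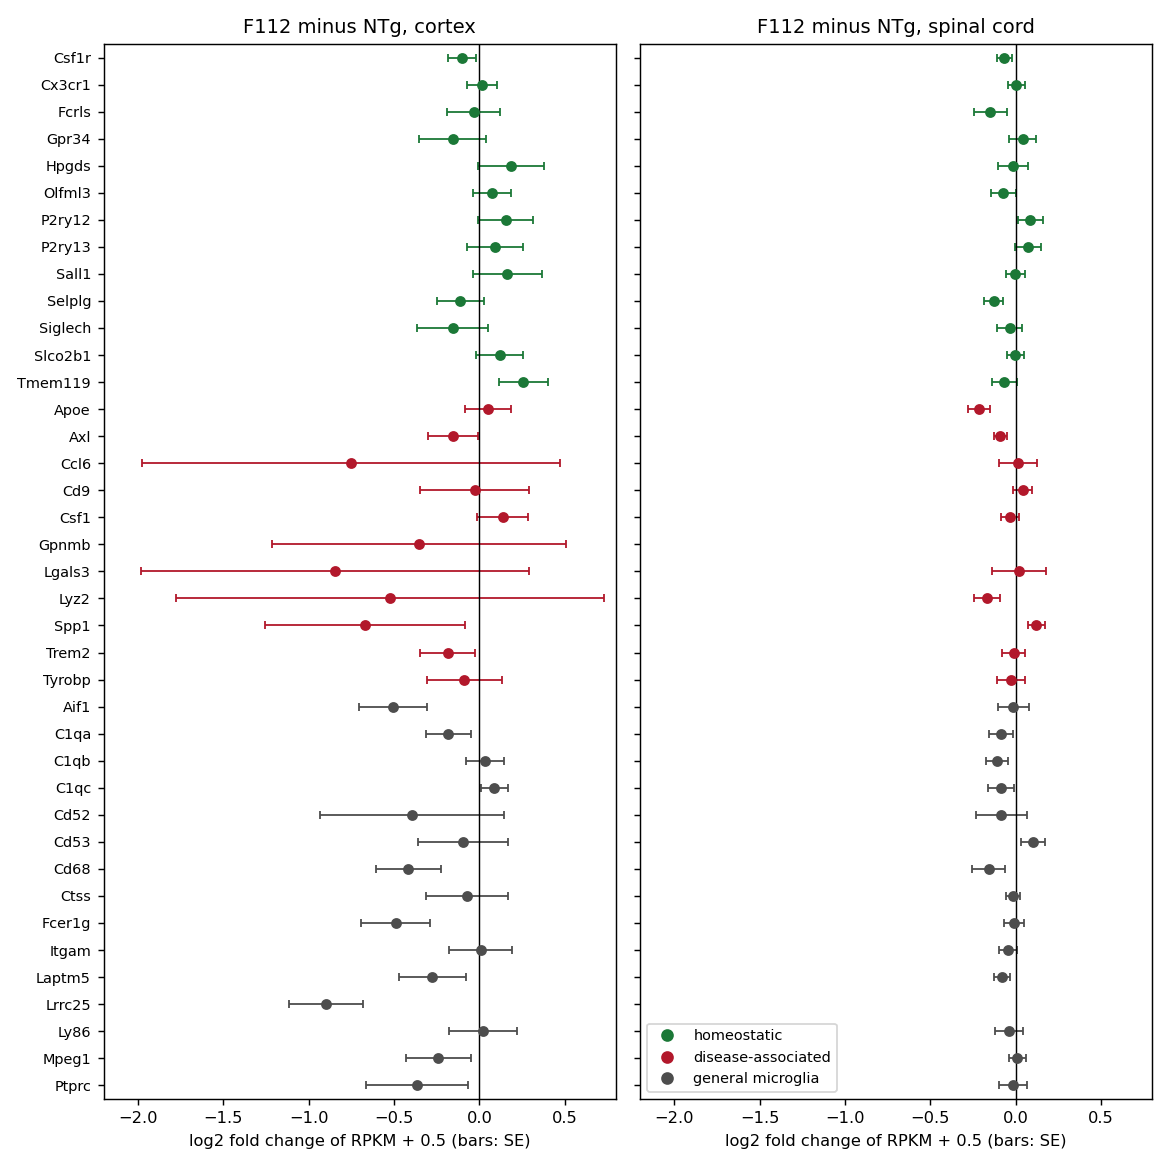
Log2 fold changes of F112 against NTg for every tested member in cortex (left) and spinal cord (right), with bars of 1 SE and colours by class; the zero line marks no difference. Bars of Ccl6, Lgals3, Lyz2 and Gpnmb are widest in cortex, where the SE of Lyz2 was 1.25, and in spinal cord it was 0.0754.

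F08 was compared with NTg in cortex to address the unexpanded transgene, and it shares the NTg libraries with the comparison above. In limma 0 of 39 members and 0% of genes passed, and 3 of 39 members had an unadjusted p under 0.05 beside 2.61% of all genes (1.59% higher and 1.02% lower). Cd68 was lower in F08, and Csf1 and Sall1 were higher. Median log2 fold changes were 0.026 for homeostatic, -0.15 for disease-associated and -0.11 for general members, beside -0.0016 for all genes, and 24 of 39 members were below 0 beside 50.5%. Cd68 had the smallest p, with a log2 fold change of -0.52 (SE 0.176, limma p 0.0127, adjusted p 1.00). The exact permutation p for Cd68 was 0.0571, and 1 NTg library, 6322, lay within the F08 range. Sall1, the transcription factor that holds microglial identity, was at 4.81, 7.37, 4.79 and 4.45 RPKM in NTg, 7.39, 7.45, 6.97 and 8.60 in F08 and 4.71, 8.68 and 5.08 in F112. The F08 libraries were higher than 3 of the 4 NTg libraries, while NTg 6323 lay within the F08 range, and the log2 fold change was 0.49 (SE 0.188, adjusted p 1.00). Csf1 differed by 0.32 (SE 0.139, adjusted p 1.00) on the same scale. Of the 39 members, 0 were higher without overlap (0.822% of genes) and 0 were lower (0.873% of genes).

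F08 against NTg depended on the libraries as well. Over the same 11 members, the disease-associated median was 0.016 among the 6 shallower libraries, -0.25 among the 5 deeper and 0.27 without the 4 libraries in which Ckm exceeded 30 RPKM. Siglech differed by -0.29 (SE 0.192) over all libraries, by -0.77 (SE 0.228, limma p 0.0108, adjusted p 0.872) among the 6 and by 0.20 (SE 0.154) among the 5.

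The direct comparison of F112 with F08 in cortex, which sets the expanded against the unexpanded line, called 0 of 39 members and 0% of genes in limma. At an unadjusted p under 0.05 there was 1 member, Lrrc25, beside 2.47% of all genes (1.54% lower and 0.93% higher). Its log2 fold change was -0.65 (SE 0.215, adjusted p 1.00, exact permutation p 0.0571), and it was the 1 member of 39 lower without overlap, beside 2.05% of genes, and 0 were higher, beside 1.52%. As against NTg, Lrrc25 passed the level filter through the groups in which it is higher. Median log2 fold changes were 0.092 for homeostatic, -0.11 for disease-associated and -0.11 for general members, beside -0.022 for all genes. Without F08 6320 the disease-associated and general medians were both above 0, at 0.065 and 0.064, and among the 6 shallower libraries they were 0.031 and -0.012 over the same members. Aif1 differed by -0.39 (SE 0.199) and Olfml3 by 0.20 (SE 0.112), both with overlap. Below 0 were 23 of 39 members beside 56.3% of genes.

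**Figure D4:**
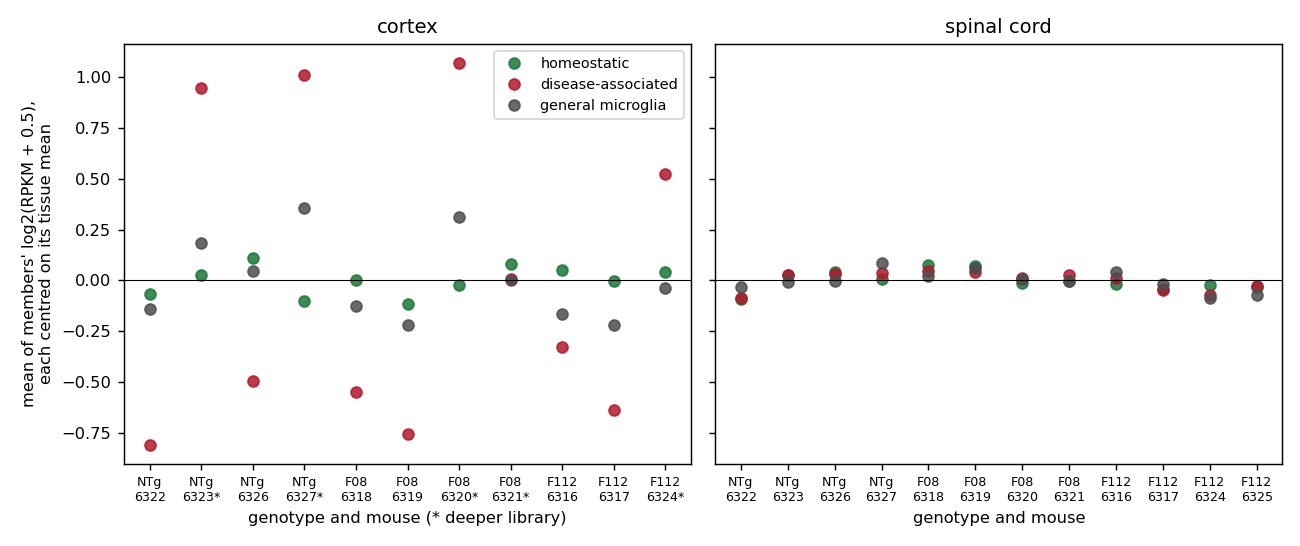
Mean of log2(RPKM + 0.5) over the tested members of each class, each gene centred on its mean in the tissue, for every library of cortex (left) and spinal cord (right). Points are single libraries and stars mark deeper cortex libraries; the disease-associated points run from -0.81 (NTg 6322) to 1.07 (F08 6320) in cortex, and all spinal cord points lie between -0.089 and 0.087.

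Spinal cord libraries were closer to one another, and differences between genotypes were small. In F112 against NTg no member passed in limma, where 1 of 13839 genes (0.00723%) passed. At an unadjusted p under 0.05 there were 5 of 37 members (Apoe, Selplg, Axl and Lyz2 lower, Spp1 higher) beside 7.11% of all genes (4.91% lower and 2.2% higher). Median log2 fold changes were -0.017 for homeostatic, which was 0.0084 under quantile normalization, -0.021 for disease-associated and -0.043 for general members, beside -0.0099 for all genes. Below 0 were 27 of 37 members beside 56.3% of genes, and no member was free of overlap between F112 and NTg (0.976% of genes higher, 2.1% lower).

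Apoe (chr7:19696109-19699188, GRCm38) had the smallest p among members. It was at 939, 873, 817 and 932 RPKM in NTg, 875, 901, 917 and 909 in F08 and 811, 839, 650.3 and 779 in F112. All 4 F112 libraries were below all 4 F08 libraries, the lowest being F112 6324, and 1 F112 library, 6317, was above 1 NTg library, 6326. Means were 890.4 ± 57.2 RPKM in NTg, 900.5 ± 18.3 in F08 and 769.6 ± 83.3 in F112 (SD, n = 4 each). The log2 fold change of F112 against NTg was -0.21 (SE 0.0661, limma p 0.00555, adjusted p 0.554). The exact permutation p was 0.0571, and without F112 6324 the difference was -0.14. Astrocyte markers (7 genes, astrocytes being another source of Apoe) summed to 1794 to 1909 RPKM in NTg, to between 1770.4 and 1904 in F08, and to between 1733 and 1824 in F112, with 5 of 7 log2 fold changes below 0. Their part in the Apoe values was not tested.

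Axl, a receptor tyrosine kinase that binds Gas6 on dying cells (chr7:25757273-25788705, GRCm38), was at 13.8, 13.7, 13.4 and 14.1 RPKM in NTg, 14.5, 14.1, 14.8 and 13.6 in F08 and 12.7, 13.3, 12.1 and 13.5 in F112. It was lowest in F112 6324, and the F112 range reached into that of NTg but not of F08. The log2 fold change against NTg was -0.090 (SE 0.0403, adjusted p 0.684). Spp1, which motor neurons also make, was at 77.5, 82.2, 84.2 and 74.2 RPKM in NTg, 80.8, 87.7, 77.4 and 76.3 in F08 and 80.2, 85.2, 90.6 and 89.9 in F112. The 2 highest values were F112 6324 and 6325, and the log2 fold change was 0.12 (SE 0.0521, adjusted p 0.679). Motor neuron markers summed to 54.1 to 63.9 RPKM in NTg and 62.1 to 75.0 in F112, with 4 of 5 log2 fold changes above 0, and their part in the Spp1 values was not tested.

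The rest of the disease-associated members overlapped between F112 and NTg. Lyz2 was at 4.60, 5.15, 5.09 and 5.83 RPKM in NTg, 4.91, 5.12, 4.02 and 4.83 in F08 and 4.91, 4.53, 4.19 and 4.53 in F112. Trem2 was at 7.97, 7.55, 7.52 and 7.86 RPKM in NTg, 8.83, 7.71, 8.20 and 9.12 in F08 and 8.87, 7.47, 6.73 and 7.65 in F112. Tyrobp was at 16.3, 12.6, 15.6 and 15.5 RPKM in NTg, 17.0, 16.3, 15.2 and 14.1 in F08 and 16.2, 15.3, 12.8 and 14.5 in F112. F112 6324 had the lowest Trem2 value and, but for NTg 6323, the lowest Tyrobp value. Csf1 was at 11.4, 11.9, 12.2 and 12.2 RPKM in NTg, 11.4, 12.9, 10.7 and 11.9 in F08 and 12.2, 12.0, 11.3 and 11.1 in F112. Itgax and Cst7 stayed under 0.3 RPKM in every library, at 0.0252 to 0.161 and 0.0384 to 0.289 RPKM. Cd9 spanned 28.8 to 37.2 RPKM, Lgals3 spanned 0.523 to 1.29, Ccl6 spanned 0.633 to 1.10, Gpnmb spanned 0.337 to 0.526 and Clec7a spanned 0.159 to 0.398.

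Among homeostatic members in spinal cord, Selplg, the ligand of P-selectin, had the smallest p. It was at 8.48, 8.98, 8.69 and 9.31 RPKM in NTg, 8.83, 9.64, 9.45 and 8.60 in F08 and 8.34, 8.21, 7.14 and 8.61 in F112. F112 6324 was lowest, 3 of the 4 F112 libraries were below every NTg library, and the log2 fold change was -0.13 (SE 0.0561, adjusted p 0.679). Cx3cr1 was at 7.48, 8.27, 8.60 and 8.46 RPKM in NTg, 8.47, 8.31, 8.07 and 8.67 in F08 and 8.36, 8.53, 8.44 and 7.56 in F112. P2ry12 was at 6.49, 7.09, 7.91 and 7.64 RPKM in NTg, 7.37, 7.66, 7.34 and 7.86 in F08 and 7.72, 7.03, 9.09 and 7.24 in F112. Csf1r was at 18.1, 19.0, 18.3 and 19.1 RPKM in NTg, 19.7, 20.2, 18.5 and 18.4 in F08 and 16.9, 17.4, 18.0 and 18.8 in F112. Cx3cr1 and P2ry12 overlapped between all genotypes, F112 6324 having the highest P2ry12 value, while 3 of the 4 F112 values of Csf1r were below every NTg and F08 value. Tmem119 was at 5.66, 6.81, 6.13 and 6.12 RPKM in NTg, 7.25, 7.11, 6.06 and 6.34 in F08 and 5.54, 5.72, 5.48 and 6.79 in F112. F112 6316 and 6324 were below all F08 and NTg libraries, while F112 6325 was above 3 of the 4 NTg libraries. Sall1 was at 8.02, 8.16, 9.42 and 9.51 RPKM in NTg, 9.62, 9.19, 9.71 and 9.24 in F08 and 9.18, 8.78, 8.12 and 8.92 in F112, with all F112 values below all F08 values, narrowly, but within the NTg range. Fcrls, Siglech, Olfml3, Gpr34, P2ry13, Slco2b1 and Hpgds spanned 3.00 to 4.52, 2.76 to 3.72, 5.05 to 6.49, 2.82 to 3.84, 2.37 to 3.30, 3.65 to 4.27 and 0.956 to 1.42 RPKM in that order.

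General members in spinal cord had standard deviations within genotypes of 0.056 (Ctss) to 0.26 (Cd52) on the log2(RPKM + 0.5) scale. C1qa was at 23.7, 25.1, 22.4 and 24.0 RPKM in NTg, 26.6, 27.0, 24.0 and 24.7 in F08 and 24.6, 23.1, 18.6 and 23.8 in F112. Aif1 was at 2.32, 2.94, 2.24 and 3.11 RPKM in NTg, 2.68, 2.78, 2.63 and 2.44 in F08 and 2.75, 2.99, 2.31 and 2.39 in F112. Cd68 was at 4.21, 3.19, 3.29 and 3.95 RPKM in NTg, 3.79, 3.06, 3.88 and 3.58 in F08 and 3.53, 3.62, 2.97 and 2.78 in F112. F112 6324 was lowest for C1qa, F112 6325 was lowest for Cd68, and Aif1, which had an unadjusted p under 0.05 in cortex, differed by -0.014 (SE 0.0926) here. C1qb and C1qc spanned 25.6 to 33.3 and 18.2 to 25.4 RPKM. Cd53, a tetraspanin of leukocytes, was at 1.30, 1.13, 1.47 and 1.16 RPKM in NTg, 1.22, 1.25, 1.38 and 1.39 in F08 and 1.45, 1.31, 1.49 and 1.31 in F112. Laptm5, a lysosomal membrane protein of blood cells, was at 12.2, 12.3, 11.9 and 12.8 RPKM in NTg, 12.5, 13.5, 12.2 and 12.96 in F08 and 11.6, 12.6, 11.2 and 10.9 in F112. Both overlapped between all genotypes, and the lowest 2 Laptm5 values were F112 6325 and 6324. Mpeg1, a pore-forming protein of macrophages, was at 4.93, 5.27, 5.25 and 5.80 RPKM in NTg, 5.60, 5.91, 5.90 and 5.78 in F08 and 5.67, 5.10, 5.31 and 5.28 in F112. Ly86 was at 6.56, 8.73, 7.48 and 8.69 RPKM in NTg, 7.23, 7.04, 6.22 and 7.26 in F08 and 7.50, 7.62, 8.44 and 6.87 in F112. Fcer1g was at 7.07, 7.13, 7.50 and 6.54 RPKM in NTg, 6.43, 5.57, 6.80 and 6.26 in F08 and 6.70, 7.14, 6.73 and 7.45 in F112. It was lowest in F08 6319, and 3 of the 4 F08 values were below every F112 value. Ctss, Itgam, Cd52 and Ptprc spanned 40.5 to 46.3, 3.82 to 4.44, 1.57 to 2.93 and 0.385 to 0.631 RPKM.

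F08 against NTg in spinal cord called 0 of 37 members in limma, where 1 gene (0.00723%) passed, and 2 members had an unadjusted p under 0.05 beside 4.1% of genes (2.3% higher and 1.8% lower). Median log2 fold changes were 0.042 for homeostatic, 0.033 for disease-associated and 0.022 for general members, beside 0.0071 for all genes, and 11 of 37 members were below 0 beside 44.4%. Fcer1g differed by -0.16 (SE 0.0588, adjusted p 1.00) and Mpeg1 by 0.12 (SE 0.0499, adjusted p 1.00). Both overlapped between F08 and NTg, as did all 37 members (2.57% of genes were higher and 1.52% lower without overlap).

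F112 against F08 in spinal cord gave the most members with a small p, in a comparison in which this was also so for all genes. Rn45s, a ribosomal RNA precursor, was at 459 RPKM in F112 6325 and at 31.5 to 82.6 in the other spinal cord libraries. Its bearing on these values was not tested. No member passed in limma, where 3 genes (0.0217%) passed, and 9 of 37 members had an unadjusted p under 0.05 beside 10.4% of genes (8.01% lower and 2.36% higher). Of these 9, Apoe, Axl, Laptm5, Selplg, C1qa, Csf1r, Tmem119 and Mpeg1 were lower in F112 and Fcer1g was higher. Below 0 were 30 of 37 members beside 58.8% of genes, with 11 of 13 homeostatic, 8 of 10 disease-associated and 11 of 14 general members. The medians of the 3 classes were close, at -0.053, -0.061 and -0.065, beside -0.016 for all genes, so homeostatic and disease-associated members lay on the same side.

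Apoe, Axl and Sall1 were lower in F112 than in F08 without overlap, 3 of 37 members beside 4.18% of genes, and 0 members were higher without overlap beside 1.36%. For Apoe the log2 fold change was -0.23 (SE 0.0661, limma p 0.00316, adjusted p 0.406). For Axl it was -0.14 (SE 0.0403, adjusted p 0.406), and for Sall1 -0.10 (SE 0.0567, adjusted p 0.539). The exact permutation p of each was 0.0286, the smallest that 70 arrangements allow, and no less than 0.0857 after adjustment over the comparisons of a gene. Laptm5 differed by -0.14 (SE 0.0455, adjusted p 0.406) and Fcer1g by 0.15 (SE 0.0588, adjusted p 0.434), both with overlap.

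**Figure D5:**
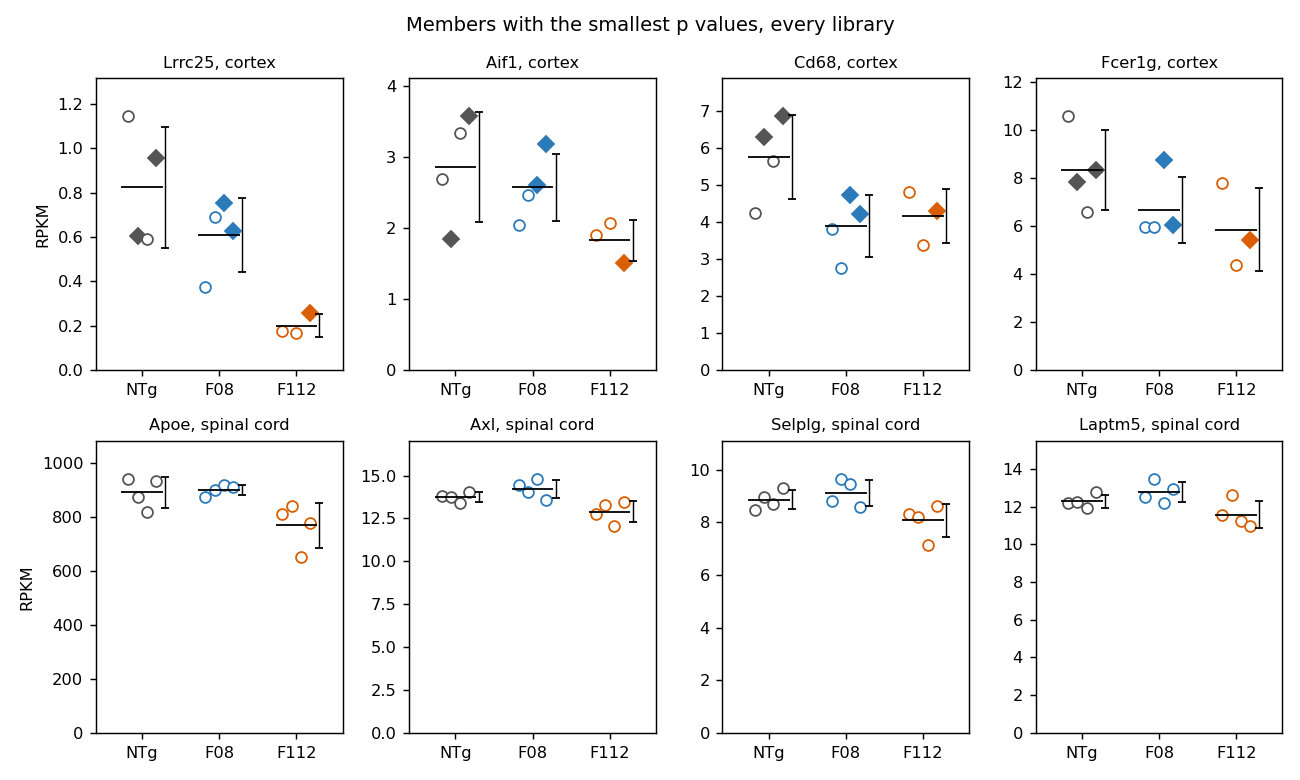
Levels (RPKM, axes from 0) by genotype in every library of 4 members with an unadjusted p under 0.05 for F112 against NTg in cortex (upper panels) and 4 with such a p for F112 against F08 in spinal cord (lower panels). Filled diamonds are deeper cortex libraries, open circles other libraries, horizontal lines genotype means and vertical bars 1 SD; Lrrc25 lies at 0.168 to 0.260 RPKM in F112 and at 0.373 RPKM or more in the other genotypes.

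The classes can also be set side by side within each library, as the mean over a class of log2(RPKM + 0.5) with each gene centred on its tissue mean. In spinal cord the homeostatic means of F112 were -0.018, -0.042, -0.024 and -0.034, those of F08 were 0.078, 0.072, -0.014 and -0.0042, and those of NTg were -0.089, 0.026, 0.041 and 0.0087. The disease-associated means were 0.012, -0.045, -0.072 and -0.029 in F112, 0.046, 0.040, 0.013 and 0.025 in F08, and -0.085, 0.026, 0.030 and 0.038 in NTg. NTg 6322 was lowest in both classes and the F112 values lay within the NTg range. In cortex, by contrast, the disease-associated means spanned -0.81 to 1.07 and the homeostatic means -0.12 to 0.11, in libraries of all 3 genotypes.

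Whether a genotype difference itself differed between tissues was tested by subtracting the value in spinal cord from that in cortex, in 1 fit over 13098 genes and all 23 libraries. The tables were scaled apart by the authors, so this test compared only within-table differences. Levels and spreads set side by side elsewhere come from tables that also differ in sequencing protocol and in alignments per library. This fit took 1 spread per gene for both tissues, although the median SD within genotypes was 0.202 in cortex and 0.079 in spinal cord. For F112 against NTg the median SE over all genes was 0.154, beside 0.155 in cortex alone. The SEs and p-values below can therefore be too small. No member passed for F112 against NTg (1 of all genes, 0.00763%), F08 against NTg (0.00763%) or F112 against F08 (0%). At an unadjusted p under 0.05 there were 2 of 37 members (3.58% of genes), 2 (2.93%) and 0 (4%). Aif1 had a difference of -0.49 (SE 0.217, adjusted p 1.00) and Fcer1g of -0.48 (SE 0.208, adjusted p 1.00) for F112 against NTg. For F08 against NTg, Csf1 had 0.34 (SE 0.143) and Cd68 -0.49 (SE 0.207). For F112 against F08, Tmem119 had the smallest p, at 0.33 (SE 0.162, limma p 0.0567).

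Other genes of the same pathways were followed in a list of 50, of which 40 passed the level filter in each tissue. In limma 0 of these 40 passed in any of the 6 comparisons. Below 0 were 32 of 40 for F112 against NTg and 34 of 40 for F08 against NTg in cortex, with medians of -0.10 and -0.12, beside 56.4% and 50.5% of all genes below 0. Both comparisons share the NTg libraries, of which 6323 and 6327 are among the deeper ones. No values by depth class are given for these 40 genes, and its part in these counts was not tested. In spinal cord 24 and 16 of 40 were below 0, with medians of -0.013 and 0.0038, beside 56.3% and 44.4% of all genes. For F112 against F08 there were 23 in cortex and 27 in spinal cord, beside 56.3% and 58.8%. An unadjusted p under 0.05 was reached by 0, 0 and 0 of the 40 in the cortex comparisons, beside 1.97%, 2.61% and 2.47% of all genes. In spinal cord 8 (7 lower), 3 (2 lower) and 6 (5 lower) of the 40 reached it, beside 7.11%, 4.1% and 10.4%.

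Among them, the integrin chain Itgb2, which pairs with Itgam and Itgax, had a spinal cord mean of 1.99 ± 0.0422 RPKM in NTg, 1.96 ± 0.140 in F08 and 1.67 ± 0.186 in F112 (SD, n = 4 each). Its log2 fold change was -0.20 (SE 0.0666, adjusted p 0.572) against NTg and -0.19 (SE 0.0666, adjusted p 0.412) against F08. Spi1, which encodes PU.1, the factor of the promoter motif above, had means of 1.47 ± 0.0813, 1.47 ± 0.157 and 1.14 ± 0.309 RPKM in NTg, F08 and F112, and a log2 fold change against F08 of -0.28 (SE 0.105, adjusted p 0.418). The ferritin heavy chain Fth1 differed by -0.18 (SE 0.0524, adjusted p 0.549) between F112 and NTg. In cortex the smallest p for F112 against NTg belonged to the lysosomal protease Ctsb, at -0.21 (SE 0.102), and to Ctsa, at -0.19 (SE 0.109).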

How the data were processed

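Cortex and lumbar spinal cord were profiled by RNA-seq in 23 libraries of 12 mice. The deposited tables hold 1 RPKM value per gene and library, which the authors computed separately for each tissue, with the alignments per library beside them. Per the labels' protocols, brain libraries followed Ion Torrent and spinal cord libraries Illumina instructions. Per the submitters' processing notes, TopHat2 2.0.8b and Partek were used with builds mm9 and mm10; the table that each belongs to is, like the use of strand, not given in the sources used here. Whole read counts cannot be recovered from the values, so counting error per gene is unknown, and the lower number of alignments in cortex limits its precision.

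Genes whose mean reached 0.5 RPKM in a tissue were tested on log2(RPKM + 0.5), a scale that understates the change of low genes. The 3 genotypes of a tissue entered 1 limma 3.58.1 fit with a mean-variance trend (R 4.3.3), and p-values were adjusted by Benjamini-Hochberg over all genes. Single members were also compared by a two-sided exact permutation test, adjusted over the comparisons in which the gene was tested (6, or 3 where it passed the filter in 1 tissue), which cannot go below 0.0286. Replicates are separate mice, and each genotype's contrasts share libraries with the others. A fit of both tables, with 1 spread per gene for both tissues, tested tissue differences. Mouse numbers in the labels pair the tissues: deviations from group means correlated by 0.0268 to 0.231 over 11 mice, and the mouse as a block had a consensus correlation of 0.0404. On simulated data, 100 genes were changed at each size. A log2 change of 1 was recovered for 80% of genes in cortex (13865 genes) and 100% in spinal cord (13839 genes). There were 10 false calls in each tissue. For a log2 change of 2 the shares were 94% and 100%. The changed genes were drawn from all genes and varied independently, so the split of the cortex libraries was absent. In cortex the median SE of F112 against NTg was 0.155 over all genes and 0.318 over disease-associated members. The shares therefore do not describe these members.

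Members, marker lists and tests were chosen with earlier results of these data known. Library values are given for 14 landmark members and for the 3 members with the smallest p in each direction of each comparison. For the pathway genes outside the set, the genes with the smallest p are named, from the first 2 in each comparison. Marker lists of muscle, intestine, lung, skin and activated macrophages, the subsets by alignments and by Ckm, and cortex medians over the members tested in all 11 libraries (with the level filter not applied again within a subset), were added after the values were seen. Gene positions and promoters are those of GRCm38 and were not used to compute values.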

Additional observations from a re-analysis of the deposited data

Results flagged for a closer look

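Values that stood far from the other 3 libraries of their group were looked for in 189 groups of 4 libraries, with Dixon's critical value for the gap over the range as the limit. Such gaps were found 10 times. About 1 in 20 would be reached by chance in independent groups, but genes of the same libraries are not independent, and most gaps came from 1 library. The total therefore does not show whether the gaps arose by chance. In cortex, F08 6320 was the high library for 7 members and the low library for 1. Its Lyz2 level was 91.1 RPKM beside 3.06 to 15.3 in the other F08 libraries, its Ccl6 level 16.8 beside 0.546 to 1.39, and its Spp1 level 18.3 beside 5.73 to 6.70. Gpnmb was at 9.15 RPKM beside 0.875 to 2.18 and Lgals3 at 9.23 beside 0.0856 to 1.61. Among general members, Cd52 was at 7.02 RPKM beside 1.36 to 1.89 and Fcer1g at 8.73 beside 5.95 to 6.05. Tmem119 was low in the same library, at 8.01 RPKM beside 11.2 to 11.5. This library also had the highest Ckm level, as given in the report, and the part of such transcripts was not tested.

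In cortex of NTg 6323, Sall1 was at 7.37 RPKM beside 4.45 to 4.81 in the other NTg libraries. In spinal cord of F112 6316, Cd52 was at 2.67 RPKM beside 1.57 to 1.66.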

How the results depend on the processing

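No member passed an adjusted p of 0.05 in limma under any alternative run, and with the mouse as a replicate block 0 members passed in each of the 3 tissue differences, the same as without it. With members of at least 5 RPKM only, the homeostatic median of F112 against F08 was -0.0036 in cortex, and in spinal cord it was -0.10 against F08 and -0.066 against NTg, over fewer members. Leaving out 1 library at a time, the homeostatic median in cortex ran from -0.013 (without F112 6316) to 0.10 (without NTg 6326) for F112 against NTg and from 0.0045 (without F08 6319; 0.013 without F112 6316) to 0.13 (without F08 6321) for F112 against F08. The disease-associated median of F112 against NTg in spinal cord ran from -0.066 (without F112 6316) to -0.0080 (without NTg 6327). For F08 against NTg in cortex, the general median was -0.39 without the 3 libraries highest in Ttr, the homeostatic median was -0.12 among the 6 shallower libraries, and Siglech, at -0.29 over all libraries, was at -0.77 (adjusted p 0.872) among these 6 and at 0.20 (adjusted p 1.00) among the 5 deeper ones. These last 2 subsets were chosen after seeing the data, and the cause was not tested for any of these values. The disease-associated median of F112 against NTg in cortex changed sign among the alternatives, from -0.53 without members that other brain cells also make to 0.18 among the 6 shallower libraries (0.16 over the members tested in all libraries); it was 0.13 with log2 alignments as a covariate.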

Other observations

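Without the 3 cortex libraries highest in Ttr (transthyretin, made by choroid plexus), both remaining NTg libraries were among the 5 deeper ones. In that subset 12 of 37 members had an unadjusted p under 0.05 for F112 against NTg, beside 7.54% of all genes, and 11 of 37 did for F08 against NTg, beside 7.01%. None passed after adjustment in limma.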
